A study of Mus musculus with 8 samples.

Results

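Complex I of the respiratory chain was followed through its nuclear genes in dystrophic and healthy skeletal muscle. The genes were taken by name, as all gene rows whose symbol begins with Nduf, without names ending in -ps, which gave 49 of 55401 rows. Of these, 41 were named as subunits and 8, with symbols beginning with Ndufaf, as assembly factors. RNA-seq had been performed on whole tibialis anterior (TA) muscles, 4 from WT (C57/Bl6) mice and 4 from mdx5cv mice, all male and 6 mo old. The mdx5cv mouse carries a mutation in Dmd, the gene of dystrophin, on the same B6 background, and is used as a model of Duchenne muscular dystrophy. No treatment is named for either group, and 1 muscle type, 1 sex and 1 age were sampled. The labels number the muscles within each genotype but do not say that each came from a separate mouse, so the p-values measure the spread between these samples.

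Complex I takes electrons from NADH, passes them along iron-sulfur clusters to ubiquinone, and pumps protons out of the mitochondrial matrix. It has an L shape: a matrix arm with the N module, which oxidizes NADH, and the Q module, which reduces ubiquinone, and a membrane arm whose proton pumps are encoded by mitochondrial DNA and surrounded by accessory subunits from nuclear genes. Assembly factors help to build the complex and are not part of the finished enzyme. In skeletal muscle, complex I is most abundant in oxidative fibers, and the TA muscle of the mouse is made up largely of fast fibers.

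Normalized counts, which are reads divided by a size factor for each muscle, were compared on the log2(normalized count + 1) scale with limma, and a gene was called at an adjusted p under 0.05 across 13677 genes, those whose normalized counts averaged 10 or more. WT muscles had 13862559 to 14921057 reads on genes and mdx5cv muscles 13175524 to 14502624, with size factors of 0.873 to 0.944 and 1.06 to 1.25. Reads of mitochondrially encoded genes made up 30.03% to 38.68% of the reads in WT muscles and 25.3% to 32.1% in mdx5cv muscles. Dmd stood at 6914, 8155, 6579 and 6169 normalized counts in WT muscles 1 to 4 and at 4399.6, 4056, 3941 and 3461 in mdx5cv muscles 1 to 4, with no overlap (log2 fold change -0.81 ± 0.12 SE, limma adjusted p = 0.000177). Over the complex I genes, a muscle at each end stood apart: WT muscle 2 had the highest level of all 8 muscles for 31 of the 46 genes tested, and mdx5cv muscle 4 had the lowest for 38. Counts of complex I genes are given for the muscles without this pair where they differ.

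The complex I genes were lower in mdx5cv muscles than in WT muscles, nearly throughout. Of the 41 subunit rows, 38 were abundant enough to be tested, and 34 of these were lower and 0 higher. Over all genes tested, 20.1% were lower and 20.9% were higher. Of the 8 assembly factors, all were tested, and 6 were lower and 0 higher. With the deposited size factors no member was higher at an unadjusted p under 0.05 by limma, nor was any called higher by edgeR or DESeq2. The median log2 fold change was -0.66 over the subunits, with a range from -1.01 to 0.04, and -0.59 over the assembly factors, while the median of all genes tested was 0.00. Without WT muscle 2 and mdx5cv muscle 4, a choice made after seeing the data, 32 subunits and 5 assembly factors were lower. Of all 13677 genes tested, 2407 were lower in that fit. Among the assembly factors, Ndufaf3 and Ndufaf8 lost the call there, and Ndufaf2 gained one at a limma adjusted p of 0.0499. RNA from a whole muscle cannot tell fewer cells of a type from less RNA per cell.

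**Figure D1:**
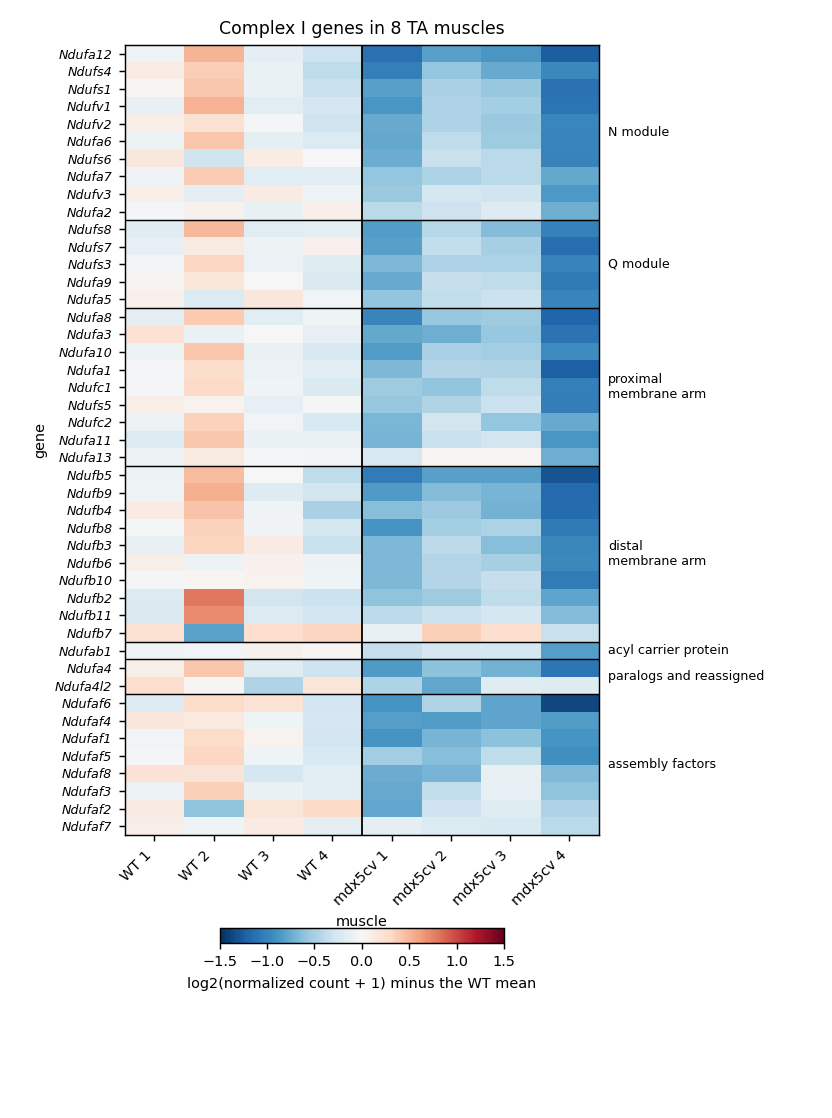
Heat map of 45 tested complex I genes in 8 muscles, each cell the log2(normalized count + 1) minus the mean of the 4 WT muscles for that gene, from blue (lower) to red (higher), with lines between modules. The mdx5cv side is blue in nearly every line, darkest in mdx5cv muscle 4, and WT muscle 2 is the reddest column. Ndufb7 breaks the pattern, with a dark cell in WT muscle 2.

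The groups did not overlap for 38 of the 46 tested genes, each with every mdx5cv muscle under every WT muscle. Such a separation downward was found for 19.8% of all genes tested. The 8 genes whose groups overlapped were Ndufa13, Ndufb7, Ndufb11, Ndufa4l2, Ndufaf2, Ndufaf3, Ndufaf7 and Ndufaf8. A difference of at least 2-fold at an adjusted p under 0.05 was reached by 1 member, Ndufa12, and downward by 3.27% of all genes tested. The 40 called members stood at 48.8% (Ndufa12) to 75.9% (Ndufa2) of their WT mean. Exons of 14 members share bases with a gene on the opposite strand, and those of Ndufb2, Ndufb8 and Ndufb9 with a gene on the same strand, so that their counts are less certain.

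The count of lower members depended on how the muscles were scaled. The deposited size factors set the median of all genes near 0. With equal totals instead, the median of all genes was 0.36 and 820 genes were lower and 5444 higher, against 2743 lower and 2854 higher with the size factors. Then 16 of 38 subunits and 3 of 8 assembly factors were lower, beside 6% of all genes lower and 39.8% higher, and the subunit median was -0.30. Equal totals without mitochondrially encoded genes gave 29 subunits and 4 assembly factors, beside 10.2% of all genes lower and 30.2% higher, with the median of all genes at 0.21. Scaling to 6 markers of mature myofibers, added after seeing the data, left 3 subunits, with Ndufa12 and Ndufb5 among them, and 0 assembly factors by limma. Beside this, 3.59% of all genes were lower and 35.1% higher. At an unadjusted p under 0.05 by limma, 9 subunits and 2 assembly factors were lower and 1 subunit was higher. The share of all genes at that unadjusted threshold was not counted, so these counts have no background beside them. The median of all genes was then 0.40. A scaling shifts all genes of a muscle by about the same amount, so the distance from the median of all genes to the subunit median, -0.66, is fixed by construction and is no sign of stability.

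**Figure D2:**
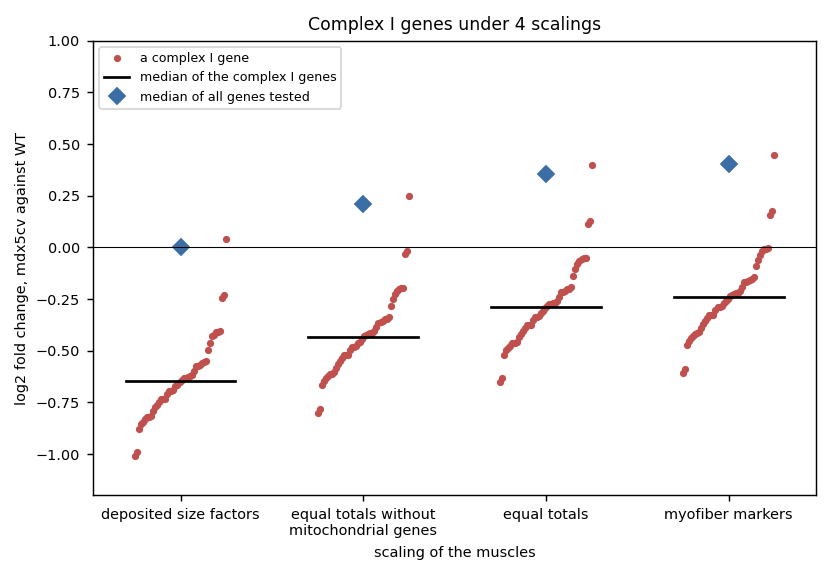
Log2 fold change of mdx5cv against WT (vertical axis) for the 46 tested complex I genes under 4 scalings of the muscles, with a red point for each gene, a black line for their median and a blue diamond for the median of all 13677 genes tested. Red points and blue diamond shift upward together, as a scaling must make them, from the deposited size factors (median of all genes 0.00) to the myofiber markers (0.40), and 1 gene, Ndufb7, lies above the diamond.

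The genes of complex I are spread over 17 chromosomes, and their promoters were compared in RefSeq sequence of the GRCm38 build, from 250 bases before to 50 bases after each start. Of the 49 members, 40 had an entry there. Those without one included Ndufa2, Ndufa4l2, Ndufaf6, Ndufb9 and Ndufs1. The median GC content was 59.3% over the members' windows and 52.7% over all windows, with a median of 20.5 and 7 CG pairs. For 16 of the 40 members, or 40%, the 250 bases before the start held an exon of another gene on the opposite strand, and 17.2% of all 27025 symbols had one. Of these neighbours, Mrpl47 beside Ndufb5, Mrpl36 beside Ndufs6 and Rps28 beside Ndufa7 are genes of ribosomal proteins. The others, among them Kbtbd4 beside Ndufs3 and Rbm10 beside Ndufb11, are not.

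In total, 14 short strings were searched on both strands of these windows. The letters AAGATGGC, the core of the site of the factor YY1, were found in 8 of 40 members and in 3.19% of all symbols. They all lay after the start and on the strand of the gene. The longer AAGATGGCGGC, which contains the shorter string, was found in 5 of 40 members and in 0.755% of all symbols. In 7 of the 8 genes the ATG within the letters was the annotated start codon, so that the string also spells the beginning of the protein. The windows of 30 bases are given because they are the stretch these genes share, with the string in capitals.
Ndufa3 (chr7:3617377-3617406, plus strand): cttgtcgccgccaagaacAAGATGGCcggg
Ndufa9 (chr6:126849104-126849133, minus strand): cgtgaggcattgtgggagAAGATGGCGGCc
Ndufaf8 (chr11:120098926-120098955, plus strand): ccggaagaggcagggcccAAGATGGCGGCg
Ndufb8 (chr19:44555393-44555422, minus strand): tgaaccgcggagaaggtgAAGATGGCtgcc
Ndufc1 (chr3:51408922-51408951, minus strand): aggcggagcctgcggaacAAGATGGCgccg
Ndufs4 (chr13:114388048-114388077, minus strand): ctggcgtttgcctacaggAAGATGGCGGCg
Ndufs6 (chr13:73328438-73328467, minus strand): gggtcaagggtcaccggcAAGATGGCGGCg
Ndufs7 (chr10:80249455-80249484, plus strand): tgtctgaaggccgaggccAAGATGGCGGCg
These 8 genes were all lower in mdx5cv muscles, with log2 fold changes from -0.83 (Ndufs4) to -0.56 (Ndufaf8), within the range of the members without the string.

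The palindrome GCGCATGCGC, a site of nuclear respiratory factor NRF1, was found in 3 of 40 members and in 1.07% of all symbols. The cyclic AMP response element TGACGTCA, also a palindrome, was found in 3 of 40 members and in 2.03% of all symbols. The string TCAAGGTCA, which estrogen-related receptors bind, was found in 0 of 40 members and in 0.466% of all symbols, and the ETS string CCGGAAGT in 1 member, Ndufs3, and in 4.31% of all symbols. Windows of 30 bases around the first 2 of these strings are given with the string in capitals.
Ndufa11, NRF1 string (chr17:56717691-56717720, plus strand): acctgcactgcGCGCATGCGCgcacgcctt
Ndufaf4, NRF1 string (chr4:24897959-24897988, plus strand): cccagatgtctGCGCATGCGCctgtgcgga
Ndufaf5, NRF1 string (chr2:140170651-140170680, plus strand): tagtcccgttgGCGCATGCGCctaatagaa
Ndufa10, cyclic AMP string (chr1:92473807-92473836, minus strand): acactcagtggTGACGTCAtggcagcgcgc
Ndufa11, cyclic AMP string (chr17:56717593-56717622, plus strand): tttacctttccTGACGTCAcgggcgtctct
Ndufb2, cyclic AMP string (chr6:39592540-39592569, plus strand): gtgcgacgcagTGACGTCAcgggccgggac
A match describes the letters only, and no binding was measured.

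Whole upstream stretches of 250 bases are given for a pair of core subunits, Ndufv2 of the N module and Ndufs8 of the Q module, and for Ndufaf4, whose NRF1 string lies 113 bases before the start. None of them holds an annotated exon. Capitals mark GGGCGGGG, a site of SP1, in Ndufv2, the CCAAT box, which occurs 3 times, in Ndufs8, and the NRF1 string in Ndufaf4. The Ndufaf4 stretch also holds the SP1 string, left there in lower case. The SP1 string was found in 22.5% of the members' windows and 19.6% of all symbols, and CCAAT in 35% and 41.1%.
Ndufv2 (chr17:66101560-66101809, minus strand): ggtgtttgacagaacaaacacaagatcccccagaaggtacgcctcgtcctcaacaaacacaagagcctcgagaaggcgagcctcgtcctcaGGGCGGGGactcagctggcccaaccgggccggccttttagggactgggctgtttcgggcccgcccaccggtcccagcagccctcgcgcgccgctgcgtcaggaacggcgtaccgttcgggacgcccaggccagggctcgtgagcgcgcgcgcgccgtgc
Ndufs8 (chr19:3912775-3913024, minus strand): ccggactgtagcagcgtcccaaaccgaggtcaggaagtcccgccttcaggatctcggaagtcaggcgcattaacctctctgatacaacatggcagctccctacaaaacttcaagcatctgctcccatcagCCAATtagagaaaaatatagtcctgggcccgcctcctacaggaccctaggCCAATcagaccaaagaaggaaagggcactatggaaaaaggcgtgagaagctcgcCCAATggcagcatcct
Ndufaf4 (chr4:24897833-24898082, plus strand): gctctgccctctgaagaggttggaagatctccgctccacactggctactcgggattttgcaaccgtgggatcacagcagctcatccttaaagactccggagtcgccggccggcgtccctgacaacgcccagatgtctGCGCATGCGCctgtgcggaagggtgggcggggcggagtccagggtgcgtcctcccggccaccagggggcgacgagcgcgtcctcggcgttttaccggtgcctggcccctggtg

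In the N module, which takes up electrons from NADH, all 10 subunits were lower, with a median log2 fold change of -0.68. The 3 core subunits of the module carry the flavin and most of the iron-sulfur clusters. Ndufv1, which binds NADH and the flavin mononucleotide, stood at 3227, 4978, 3114 and 2918 normalized counts in WT muscles 1 to 4 and at 1905, 2529, 2439 and 1621 in mdx5cv muscles 1 to 4. WT muscle 2 was far above the other WT muscles, and the groups did not overlap (log2 fold change -0.73 ± 0.18 SE, limma adjusted p = 0.00539). Ndufv2, its iron-sulfur partner, stood at 2963, 3235, 2699 and 2237 in WT and at 1634, 2007, 1875 and 1395 in mdx5cv. The WT muscles were closer together here, and all 4 mdx5cv muscles lay under them (log2 fold change -0.69 ± 0.14 SE, limma adjusted p = 0.00164). Ndufs1, the large iron-sulfur subunit, stood at 4678, 6059, 4279 and 3625 in WT and at 2601, 3257, 3098 and 2115 in mdx5cv. Again WT muscle 2 was the highest and mdx5cv muscle 4 the lowest, with a gap between the groups (log2 fold change -0.75 ± 0.17 SE, limma adjusted p = 0.00317).

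The accessory subunits of the N module spanned the range of all called members. Ndufa12 (chr10:94198720-94221443, GRCm38), which joins the module late in assembly, showed the largest fall of all members. Its normalized counts were 1679, 2502, 1599 and 1421 in WT muscles 1 to 4 and 812, 998, 957 and 744 in mdx5cv muscles 1 to 4. The mdx5cv mean was 48.8% of the WT mean, and the highest mdx5cv muscle lay well under the lowest WT muscle (log2 fold change -1.01 ± 0.16 SE, 95% interval -1.36 to -0.66, limma adjusted p = 0.000314). Without WT muscle 2 and mdx5cv muscle 4 its log2 fold change was -0.77. Ndufa2, a small subunit with a thioredoxin-like fold, showed the smallest change of the module, with 817, 865, 768 and 877 in WT and 629, 672, 725 and 501 in mdx5cv. Its mdx5cv muscles were lower in 4 of 4 cases, with muscle 4 the farthest down, and the fall was to 75.9% of the WT mean (log2 fold change -0.41 ± 0.12 SE, limma adjusted p = 0.0148). Between them lay Ndufs4 (-0.83), Ndufa6 (-0.67), Ndufs6 (-0.62), Ndufa7 (-0.56) and Ndufv3 (-0.49), all given as log2 fold changes. Ndufs4, whose loss in mice causes a Leigh-like disease, was at 55.5% of its WT mean.

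**Figure D3:**
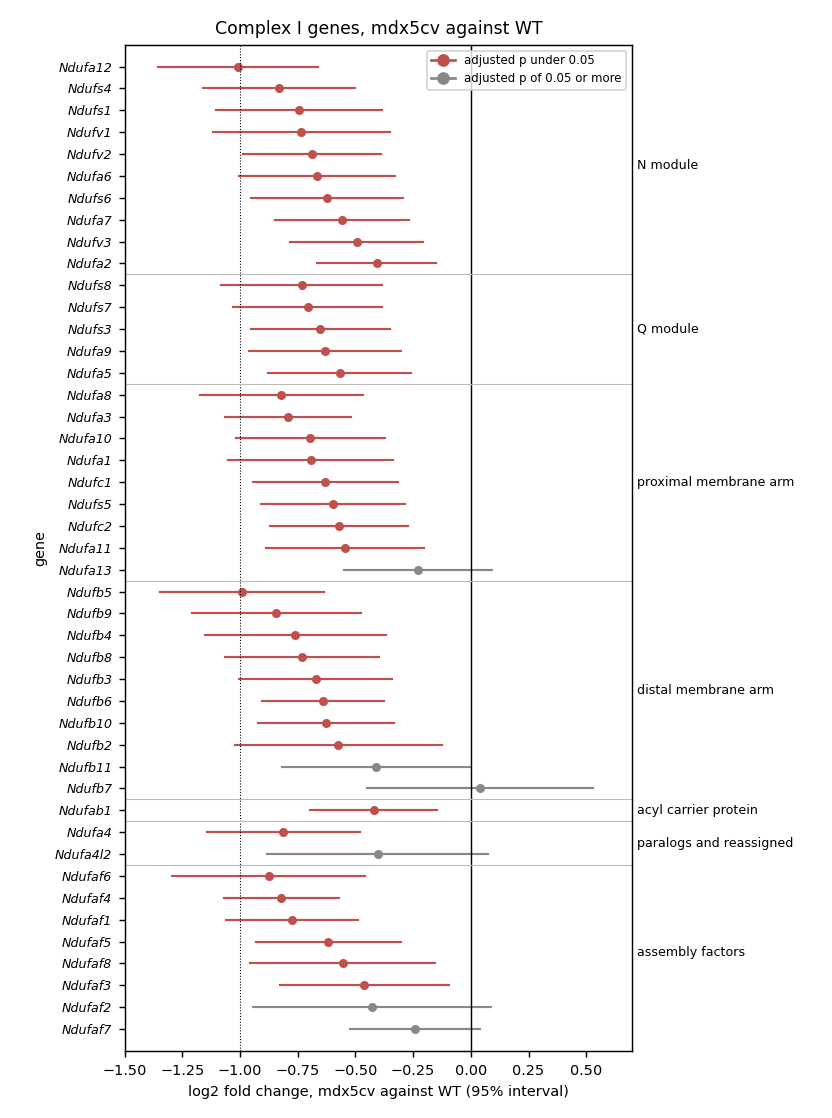
Log2 fold change of mdx5cv against WT (horizontal axis) with its 95% interval for each of 45 tested complex I genes, grouped by module, red where the limma adjusted p was under 0.05 and grey otherwise. The dotted line marks a 2-fold fall. The 39 red genes all lie left of 0, from Ndufa12 at -1.01 to Ndufa2 at -0.41, and Ndufb7 sits at 0.04.

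The Q module, where electrons reach ubiquinone, fell as a whole: all 6 subunits were lower, with a median log2 fold change of -0.68. Ndufs7, which holds the last iron-sulfur cluster before ubiquinone, stood at 1862, 2233, 1917 and 2118 in WT and at 1148, 1574, 1433 and 918 in mdx5cv. Its 4 mdx5cv values lay under its 4 WT values (log2 fold change -0.71 ± 0.15 SE, limma adjusted p = 0.00230).

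Ndufs8, the other iron-sulfur subunit of the Q module, stood at 973, 1543, 978 and 995 in WT muscles 1 to 4 and at 614, 817, 698 and 544 in mdx5cv muscles 1 to 4. The other 3 WT values were nearly the same and WT muscle 2 was far above them, but the groups did not overlap (log2 fold change -0.73 ± 0.16 SE, limma adjusted p = 0.00304, and -0.48 without WT muscle 2 and mdx5cv muscle 4). For Ndufs3, a core subunit with no cluster of its own, the values were 1695, 2167, 1633 and 1536 in WT and 1094, 1265, 1249 and 871 in mdx5cv. The groups were apart here too (log2 fold change -0.65 ± 0.14 SE, limma adjusted p = 0.00245). Ndufa5, an accessory subunit, had the smallest change of the module, with 1169, 969, 1258 and 1087 in WT and 741, 865, 889 and 560.2 in mdx5cv. WT muscle 2 was the lowest of its group, and still above every mdx5cv muscle (log2 fold change -0.57 ± 0.14 SE, limma adjusted p = 0.00678). Ndufa9, which helps to join the matrix arm to the membrane arm, changed by -0.63 on the log2 scale.

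Nuclear core subunits and accessory subunits were lower alike. All 7 core genes were lower, with a median log2 fold change of -0.73. Of the 29 accessory subunits placed in a module, 26 were lower, with a median of -0.63, and 24 without WT muscle 2 and mdx5cv muscle 4. These are descriptions, and the difference between the classes was not tested.

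In the proximal part of the membrane arm, 8 of 9 subunits were lower, with a median log2 fold change of -0.63. Ndufa8, a soluble subunit on the side of the intermembrane space, fell most. Its normalized counts were 921, 1338, 906 and 978 in WT muscles 1 to 4 and 512, 688, 705 and 449 in mdx5cv muscles 1 to 4, with no overlap (log2 fold change -0.82 ± 0.16 SE, limma adjusted p = 0.00151). Ndufa3 (-0.79), Ndufa10 (-0.70), Ndufa1 (-0.69), Ndufc1 (-0.63), Ndufs5 (-0.60), Ndufc2 (-0.57) and Ndufa11 (-0.55) followed, as log2 fold changes. Ndufa3 was among the members with a small spread, at 915 ± 100.1 in WT and 530.4 ± 80.9 in mdx5cv (mean ± SD, n = 4). The call of Ndufa11 was lost without WT muscle 2 and mdx5cv muscle 4, at a log2 fold change of -0.30 and a limma adjusted p of 0.0533.

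Ndufa13, also known as GRIM-19, was the exception of the proximal arm. It stood at 1954, 2253, 2021 and 1991 normalized counts in WT muscles 1 to 4 and at 1739.8, 2094, 2078 and 1239 in mdx5cv muscles 1 to 4. mdx5cv muscles 2 and 3 were within the WT range, muscle 1 lay somewhat and muscle 4 far below it (log2 fold change -0.23 ± 0.15 SE, 95% interval -0.55 to 0.09, limma adjusted p = 0.242). Without mdx5cv muscle 4 the log2 fold change of Ndufa13 was -0.063 (limma adjusted p = 0.662). With equal totals the sign turned, to 0.13. The exons of Ndufa13 share 375 bases with Tssk6 on the opposite strand, so its count is uncertain unless strand was used in counting, which the sources used here do not state.

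In the distal part of the membrane arm, 8 of 10 subunits were lower, or 7 without WT muscle 2 and mdx5cv muscle 4, with a median log2 fold change of -0.66. Ndufb5 was close to a 2-fold fall. Its normalized counts were 2105, 3075, 2216 and 1708 in WT muscles 1 to 4 and 1077, 1268, 1261 and 908 in mdx5cv muscles 1 to 4. The 4 mdx5cv muscles formed a narrow band under the WT muscles (log2 fold change -0.99 ± 0.16 SE, limma adjusted p = 0.000420). By edgeR and DESeq2 the log2 fold change of Ndufb5 was -1.01, past the 2-fold line. Its exons share 616 bases with Mrpl47 on the opposite strand, which adds the same uncertainty. The other called genes of the distal arm, as log2 fold changes, were Ndufb9 (-0.84), Ndufb4 (-0.76), Ndufb8 (-0.73), Ndufb3 (-0.67), Ndufb6 (-0.64), Ndufb10 (-0.63) and Ndufb2 (-0.57).

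Ndufb7, an accessory subunit on the side of the intermembrane space, did not follow the other members. It stood at 763, 374, 773 and 812 normalized counts in WT muscles 1 to 4 and at 601, 834, 774 and 516 in mdx5cv muscles 1 to 4. WT muscle 2 held the lowest value of all 8 muscles, less than every mdx5cv value, while the other 3 WT muscles lay close together (log2 fold change 0.04 ± 0.23 SE, 95% interval -0.45 to 0.53, limma adjusted p = 0.905). Without WT muscle 2 the log2 fold change was -0.23, at a limma adjusted p of 0.253. The interval spans no change and the smaller falls, such as that of Ndufa2 (-0.41), but does not reach the subunit median of -0.66.

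WT muscle 2 was also out of line for other small subunits of this arm, in the opposite direction. Ndufb2 stood at 400.0, 796, 380.3 and 369 in WT muscles 1 to 4 and at 303, 318, 353 and 266 in mdx5cv muscles 1 to 4. Its WT mean rested on that muscle, and the log2 fold change was -0.57 with all muscles (limma adjusted p = 0.0413) and -0.31 without WT muscle 2 (limma adjusted p = 0.0471). The call of Ndufb2 was lost without WT muscle 1 (-0.64, limma adjusted p = 0.0515) and without mdx5cv muscle 1 (-0.57, 0.0806), 2 (-0.59, 0.0610) or 4 (-0.50, 0.104). Ndufb11 stood at 1107, 2106, 1122 and 1058 in WT and at 981, 1028, 1072 and 818 in mdx5cv, and was not called (log2 fold change -0.41 ± 0.19 SE, limma adjusted p = 0.0998). Without WT muscle 2 and mdx5cv muscle 4, the log2 fold change of Ndufb11 was -0.09. Ndufs6 of the N module and Ndufaf2 were in turn lowest of the WT group in WT muscle 2, at 502 and 25.2 normalized counts.

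**Figure D4:**
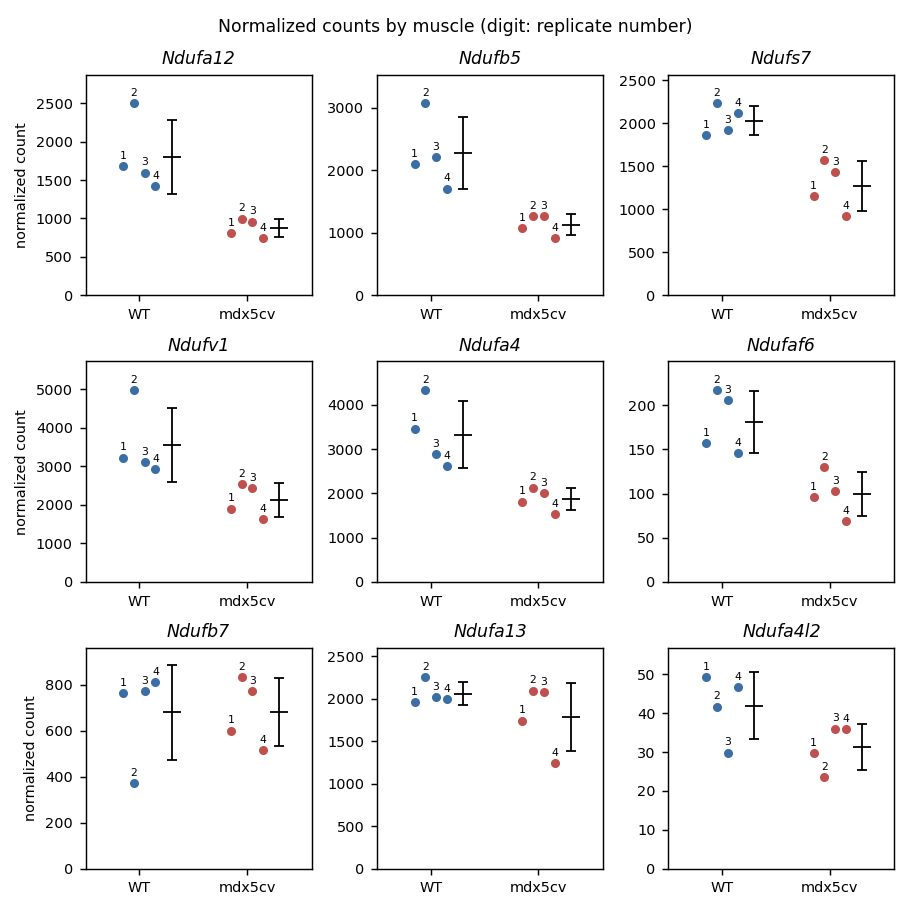
Normalized counts (vertical axis, from 0) of 9 complex I genes in 4 WT (blue) and 4 mdx5cv (red) muscles, with the replicate number at each point and the mean ± SD in black. Ndufa12, Ndufb5, Ndufs7, Ndufv1, Ndufa4 and Ndufaf6 show the mdx5cv points under all WT points. The groups overlap in Ndufb7, Ndufa13 and Ndufa4l2, and WT muscle 2 is the lowest point of Ndufb7.

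Ndufab1, the mitochondrial acyl carrier protein, is bound to both arms of complex I and also serves fatty acid synthesis in mitochondria. Its normalized counts were 669, 672, 724 and 705 in WT muscles 1 to 4 and 546, 579, 577 and 391 in mdx5cv muscles 1 to 4. The WT values spread little, and mdx5cv muscle 4 was far below the other mdx5cv muscles (log2 fold change -0.42 ± 0.13 SE, limma adjusted p = 0.0178). The call was lost without WT muscle 3, at a log2 fold change of -0.40 and a limma adjusted p of 0.0513.

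Ndufa4 carries a complex I name but is now placed in complex IV. It stood at 3463, 4334, 2886 and 2625 normalized counts in WT muscles 1 to 4 and at 1815, 2133, 1999 and 1539 in mdx5cv muscles 1 to 4, and the groups did not overlap (log2 fold change -0.81 ± 0.15 SE, limma adjusted p = 0.00106). Its paralog Ndufa4l2, a gene induced by hypoxia in other tissues, was near the lower end of the levels, at 49.3, 41.7, 29.9 and 46.6 in WT and 29.6, 23.6, 36.0 and 36.0 in mdx5cv. The ranges of the groups overlapped, with WT muscle 3 among the mdx5cv values (log2 fold change -0.40 ± 0.22 SE, 95% interval -0.88 to 0.08, limma adjusted p = 0.166). Per kilobase of exon the WT mean was 2409 for Ndufa4 and 38.2 for Ndufa4l2. The remaining subunit rows, Ndufa11b, Ndufb4c and Ndufs6b, are processed pseudogenes in the annotation with 10, 6 and 6 reads over all 8 muscles, and no difference was detectable at this depth.

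The assembly factors had lower levels than the subunits, and most of them fell too. Per kilobase of exon, the median WT level was 106 normalized counts over the 8 assembly factors and 838 over the 38 tested subunits. Ndufaf6, needed for the early assembly of the membrane arm, had the largest log2 fold change. It stood at 157, 217, 206 and 146 normalized counts in WT muscles 1 to 4 and at 96.3, 130.2, 103 and 68.7 in mdx5cv muscles 1 to 4. Every mdx5cv muscle was under every WT muscle, with mdx5cv muscle 4 the lowest by a wide step (log2 fold change -0.88 ± 0.19 SE, limma adjusted p = 0.00297). Ndufaf4, which works with Ndufaf3 on the Q module and carries the NRF1 string, had the most even mdx5cv values, at 431 ± 58.4 in WT and 242 ± 3.58 in mdx5cv (mean ± SD, n = 4; log2 fold change -0.82).

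Ndufaf1, a factor for the membrane arm, changed by -0.77, and Ndufaf5, which hydroxylates Ndufs7, by -0.62 on the log2 scale. Ndufaf8, the partner of Ndufaf5, and Ndufaf3 were called with all muscles, at -0.56 (limma adjusted p = 0.0292) and -0.46 (limma adjusted p = 0.0446), but both calls hung on single muscles. That of Ndufaf8 was lost in 5 of the 8 fits that left out a muscle, the largest adjusted p being 0.0867 without WT muscle 1, and that of Ndufaf3 in 6 of 8, up to 0.136 without mdx5cv muscle 1. Ndufaf3 was also not called by edgeR (adjusted p = 0.0514) or DESeq2 (adjusted p = 0.0626). Ndufaf7, a methyltransferase, had the smallest difference, with 126, 113, 129 and 107 in WT muscles 1 to 4 and 107, 103, 101 and 89.5 in mdx5cv muscles 1 to 4. mdx5cv muscle 1 lay above WT muscle 4, so the groups overlapped slightly (log2 fold change -0.24 ± 0.13 SE, 95% interval -0.52 to 0.04, limma adjusted p = 0.154). Ndufaf2, a relative of Ndufa12, was at 42.4, 25.2, 44.2 and 47.7 in WT muscles 1 to 4 and at 22.2, 31.1, 34.2 and 28.0 in mdx5cv muscles 1 to 4 (log2 fold change -0.43, limma adjusted p = 0.170). Without WT muscle 2 it was called, at -0.63 and a limma adjusted p of 0.0341.

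Of 12 further assembly factors that are not named Nduf, 11 were tested and 8 were lower, with a median log2 fold change of -0.45. The largest was Tmem70, at 503 ± 82.4 in WT and 273 ± 13.0 in mdx5cv (mean ± SD, n = 4; log2 fold change -0.86, limma adjusted p = 0.000120). The smallest was Tmem186, at 206 ± 8.72 and 171 ± 11.2 (log2 fold change -0.27, limma adjusted p = 0.0633). Ecsit and Acad9, which form a complex with Ndufaf1, changed by -0.60 and -0.45. Without WT muscle 2 and mdx5cv muscle 4, the count of lower genes among the 11 was 4. Of all genes tested, 20.1% were lower with the deposited size factors. With equal totals 1 of the 11 was lower, beside 6% of all genes, and their median log2 fold change was -0.09. Scaled to myofiber markers 0 were lower, beside 3.59% of all genes, with a median of -0.05.

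The complex I subunits encoded by mitochondrial DNA were lower as well. Of 7 genes, 6 were tested and 5 were lower, from mt-Nd3 (log2 fold change -2.34 ± 0.27 SE, limma adjusted p = 2.38e-05) to mt-Nd6, which was not called (-0.65 ± 0.31, limma adjusted p = 0.112). mt-Nd3 stood at 296, 261, 213 and 166 in WT muscles 1 to 4 and at 41.7, 74.5, 46.8 and 26.4 in mdx5cv muscles 1 to 4, with no overlap. The groups of mt-Nd1 did not overlap either, while those of mt-Nd2, mt-Nd4, mt-Nd5 and mt-Nd6 did. With equal totals 3 of the 6 were lower, beside 6% of all genes. The share of all genes lower with the deposited size factors was 20.1%. In contrast to the nuclear genes, the median of these genes was lowest among the WT muscles in WT muscle 2.

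The other respiratory complexes were lower in mdx5cv muscles as well. Of their nuclear subunits, 3 of 4 were lower in complex II, 8 of 9 in complex III, 10 of 10 in complex IV and 14 of 15 in complex V, and 0 were higher by limma in any of these. The counts were 3, 7, 9 and 13 without WT muscle 2 and mdx5cv muscle 4. With equal totals they were 1, 3, 6 and 4, or 14 of the 38 genes, beside 6% of all genes. Scaled to myofiber markers, 3 of the 38 were lower, beside 3.59% of all genes. With the deposited size factors 35 of the 38 were lower, beside 20.1% of all genes. The median log2 fold changes were then -0.62, -0.62, -0.68 and -0.62, beside -0.66 for the complex I subunits. The same muscles stood at the ends. As log2 deviation from the WT mean, the median of the complex I subunits was 0.32 in WT muscle 2 and -1.001 in mdx5cv muscle 4, and that of complexes II to V was 0.33 and -0.997. No difference between the complexes was tested.

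**Figure D5:**
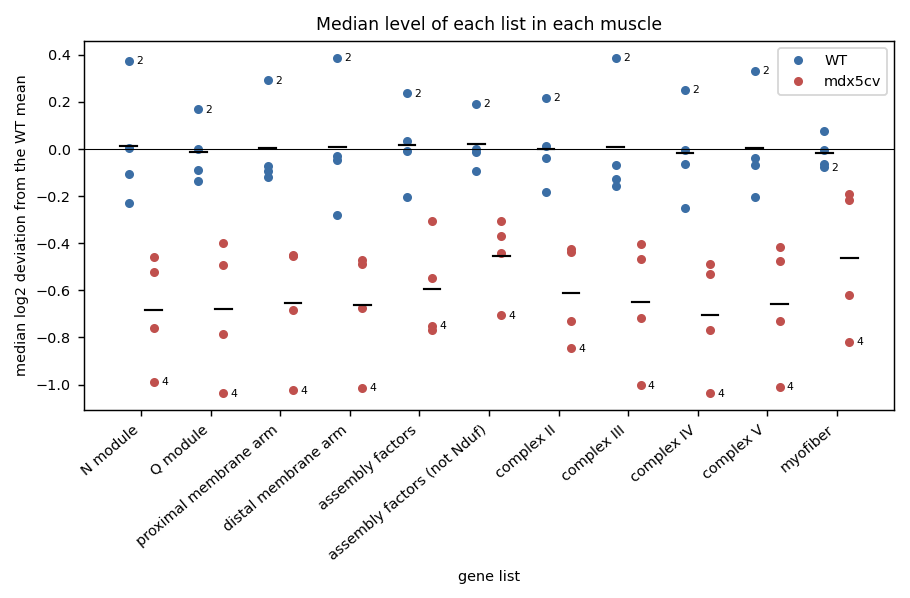
Median log2 deviation from the WT mean (vertical axis) over the genes of each list in each of 4 WT (blue) and 4 mdx5cv (red) muscles, with black bars for group means and the digits 2 and 4 at WT muscle 2 and mdx5cv muscle 4. Every mdx5cv point lies under every WT point in all 11 lists. WT muscle 2 is the highest point of each list but the myofiber markers, where it is the lowest of the WT muscles.

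Genes that regulate mitochondrial genes did not move together. Of 10 regulators, 4 were lower and 1 was higher, beside 20.1% and 20.9% of all genes tested. With equal totals 1 was lower and 2 were higher, beside 6% and 39.8% of all genes. Esrrg, an estrogen-related receptor, stood at 354, 304, 371 and 276 normalized counts in WT muscles 1 to 4 and at 63.9, 118, 82.8 and 71.9 in mdx5cv muscles 1 to 4, without overlap (log2 fold change -1.97 ± 0.18 SE, limma adjusted p = 5.17e-06). Esrra, Tfam and Ppara were also lower without overlap, at log2 fold changes of -0.52, -0.56 and -0.54 (limma adjusted p = 0.0135, 0.00478 and 0.00275). Ppargc1b, a coactivator of mitochondrial genes, was higher (log2 fold change 0.52 ± 0.14 SE, limma adjusted p = 0.00877). Nrf1 and Yy1, whose strings were searched in the promoters, had log2 fold changes of 0.01 and -0.07 and were not called (limma adjusted p = 0.934 and 0.585).

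Markers of cell types also differed between the groups, some higher and some lower in mdx5cv muscles. Of 6 macrophage markers 6 were higher, and their summed level was 481 to 746 normalized counts in WT and 3565 to 8548 in mdx5cv. Of 5 markers of regenerating fibers 5 were higher, from 118 to 143 in WT and from 2126 to 8271 in mdx5cv, and of 5 fibroblast markers 4 were higher, from 6091 to 9304 and from 21908 to 40175. Of 6 markers of mature myofibers 3 were lower (Ckm, Tnnt3 and Tnni2), with sums of 956668 to 1154725 in WT and 672941 to 1041909 in mdx5cv. Of 4 endothelial markers 4 were lower, with sums of 2394 to 2882 and 1438 to 1878. Among 5 slow fiber markers 3 were higher and 1 lower, among 5 pericyte and smooth muscle markers 2 were higher and 3 lower, and among 4 adipocyte markers 3 were lower. Of all these markers, Mymx, which drives the fusion of myoblasts, was at 0 in each WT muscle, and at 38.9, 24.5, 26.1 and 88.7 in mdx5cv muscles 1 to 4. The muscle with the lowest complex I level, mdx5cv muscle 4, had the highest sum of the regenerating fiber markers, 8271 beside 4703, 2126 and 2930 in the other mdx5cv muscles, and the lowest median log2 deviation of the myofiber markers from the WT mean, at -0.82. Among the mdx5cv muscles it also had the highest sums of the macrophage (8548), fibroblast (40175), slow fiber (1164) and adipocyte (52) markers. Its sum of the endothelial markers was the lowest (1438), and that of the pericyte and smooth muscle markers was at neither end. These observations rest on 1 muscle, which also had the largest size factor of all muscles, 1.25. The part of these cell types in the lower complex I levels was not tested.

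As a share of all reads, the subunits made up 0.343%, 0.440%, 0.354% and 0.347% in WT muscles 1 to 4 and 0.283%, 0.308%, 0.319% and 0.262% in mdx5cv muscles 1 to 4. This measure uses no size factor, and the groups did not overlap. It is the scaling by equal totals in another form, under which 16 of 38 subunits were lower when tested singly. As a sum, it weighs the abundant subunits most. With reads of mitochondrially encoded genes left out, the shares were 0.560%, 0.704%, 0.542% and 0.496% in WT and 0.378%, 0.454%, 0.445% and 0.363% in mdx5cv, again without overlap.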

How the data were processed

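In total, 4 whole TA muscles of WT and 4 of mdx5cv mice were profiled by stranded total RNA-seq after Trizol extraction, and were grouped by the genotype in their labels. The file deposited by the authors holds a signal for every gene, the reads of a muscle over that muscle's size factor. The submitters' processing notes name FastQC, Trim Galore 0.6.4, STAR 2.6.0c, SAMtools 1.9, featureCounts, MultiQC 1.6, DESeq2 1.26.0, R 3.6.2 and mm10. The annotation release and the strand setting are not given in the sources used here. GENCODE M21, whose positions are printed, holds 55141 of the 55401 gene IDs when version numbers are dropped.

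All values of the table (100%) gave whole reads within 0.001, and 0 columns were unmapped. Replicates differed by more than sampling noise (chi-square over degrees of freedom, 8.59 to 38.4). The comparison used limma 3.58.1 under R 4.3.3 (lmFit, eBayes with a variance trend, two-sided, Benjamini-Hochberg over 13677 genes) on log2(normalized count + 1). Fold changes on this scale understate the change of low genes. The scripts were tested on simulated data. Promoter strings were searched in 300-base windows with Python 3.11.15, numpy 2.4.6 and pandas 2.3.3.

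The alternatives were pseudocounts of 0.1 and 10, other filters on low values, TMM factors, equal totals with and without mitochondrially encoded genes, a fit without the variance trend, a block for the replicate number, leaving out single muscles, and tests of the recovered reads with DESeq2 1.42.0 and with edgeR 4.0.16 by quasi-likelihood. Scaling to myofiber markers and leaving out WT muscle 2 and mdx5cv muscle 4 together were added after seeing the data. The members and all lists were chosen with earlier results of these data known, so they are described by counts and medians, with no test of a list. Values in every muscle are given for the core subunits, for the largest and smallest log2 fold change in each module and among the assembly factors, and for Ndufa4 and Ndufa4l2. Those of Ndufb2 and Ndufb11 were added after their values were seen. The values of 1 gene are not reported here, though it is part of the counts and medians.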

Additional observations from a re-analysis of the deposited data

Results flagged for a closer look

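In groups of 4 muscles, a value was singled out where its gap to the nearest of the others was too large a part of the range of the group by Dixon's test at the 95% level. Of 68 sets of 4 muscles, 4 met this, where chance gives about 3.4.

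Ndufs8 stood at 10.59 (log2 of the normalized count + 1) in WT muscle 2, above 9.93 to 9.96 in the other WT muscles. Ndufb7 went the opposite way in the same muscle, at 8.55 against 9.58 to 9.67. The median log2 deviation of the proximal membrane arm from the WT mean was 0.29 in WT muscle 2 and -0.12 to -0.07 in the other WT muscles. Ndufab1 stood at 8.61 in mdx5cv muscle 4, below 9.09 to 9.18 in the other mdx5cv muscles.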

How the results depend on the processing

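Alternatives are set beside 34 subunits, 6 assembly factors and 1 member past 2-fold, and beside 2743 lower and 2854 higher genes. Scaling moved the counts. With equal totals, 820 genes were lower and 5444 higher, with 16 subunits and 3 assembly factors lower. Without mitochondrially encoded genes in the totals, 1398 genes were lower. Scaled to myofiber markers, 491 genes were lower and 4796 higher, with 3 subunits and 0 assembly factors lower. Members past a 2-fold fall numbered 2 by edgeR and by DESeq2 and 0 under the 3 scalings and without WT muscle 2 and mdx5cv muscle 4. Leaving out each muscle in turn gave 33 to 34 lower subunits, 4 to 6 assembly factors and 0 to 3 members past 2-fold, which were Ndufa12, Ndufb5 and, without mdx5cv muscle 2, Ndufaf6. It gave 0 without WT muscle 2, mdx5cv muscle 1 or mdx5cv muscle 4. Of all genes, 2248 to 2625 were lower and 2426 to 2853 higher. Of the 40 called members, 36 were called in each of these fits, and 19 in each of the 19 alternatives that were not added later.

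Over 19 genes and 21 alternatives, 371 results kept direction and side of the threshold, 20 lost the call and 8 changed sign. Ndufa13 turned to 0.13 with equal totals and 0.18 with myofiber markers, and Ndufaf7 to 0.11 and 0.16. Ndufb7 turned to -0.23 without WT muscle 2, -0.07 without mdx5cv muscle 2, -0.03 without mdx5cv muscle 3 and -0.10 without WT muscle 2 and mdx5cv muscle 4. The cause was not tested.

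The labels do not say whether muscles with the same replicate number were paired, and the values do not settle it. Deviations of same-numbered muscles correlated at 0.05, 0.031, 0.072 and 0.146, and only muscles 3 and 4 correlated best with their own number. With the replicate number as a block, 35 subunits and 6 assembly factors were lower, and 2736 genes were lower and 2880 higher.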

Other observations

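The names ending in -ps, which were left out of the complex I genes, held 1 abundant row. Ndufb1-ps stood at 615, 740.4, 614 and 447 normalized counts in WT muscles 1 to 4 and at 415, 396, 439 and 316 in mdx5cv muscles 1 to 4, without overlap (log2 fold change -0.61 ± 0.15 SE, limma adjusted p = 0.00600). Its fall lay within the range of the distal membrane arm, from -0.99 to 0.04. Ndufa12-ps stood at 109 in mdx5cv muscle 2 and at 4.58 to 15.9 in the other 7 muscles. Ndufab1-ps and Ndufs5-ps were under the minimum and were not tested.

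Per kilobase of exon, Ndufb2 and Ndufab1 were at 86.4 and 101 normalized counts in WT muscle, and their exons add up to 5628 and 6883 bases in the annotation, which lowers a value per kilobase where the long forms are not used in muscle. That use was not measured.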
